A study of Mus musculus with 6 samples.

Results

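Translation factors are the proteins that bring the ribosome to an mRNA, move it along the message and release the finished protein. The mRNAs of 41 of them were examined in the mouse ovarian cancer line ID8, chosen by name as factors eIF1 to eIF6, elongation factors, release factors and the cytoplasmic poly(A)-binding protein. All 41 were among the 53465 genes of the table, all 41 had 10 or more counts in at least 3 of 6 libraries, and all 41 were among the 8200 genes tested.

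Initiation begins when eIF2, loaded with GTP and the initiator tRNA, joins eIF1, eIF1A, eIF3 and eIF5 on the small ribosomal subunit. The eIF4 factors bind the cap of the mRNA, unwind its leader and recruit this complex through eIF3, and eIF5B then helps the large subunit to join. The eEF1 and eEF2 factors drive elongation, and eRF1 and eRF3 end it at a stop codon. Many of these mRNAs are abundant in dividing cells, and those of most elongation factors and of the poly(A)-binding protein belong to the class whose leaders open with a terminal oligopyrimidine (TOP) tract, through which mTOR signalling controls their translation.

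The study asked what follows from depletion of NAT10, the acetyltransferase that makes N4-acetylcytidine in RNA, with DNA damage as its stated interest. ID8 is a line of mouse ovarian surface epithelial origin. The 3 libraries labelled WT were taken as the stable line with the control guide (sgNC) and the 3 labelled KO as the stable line with a guide against Nat10 (sgNat10), which the design text calls a knockdown. The labels of these libraries name no drug or other treatment. Replicates carry the numbers 4 to 6 in both groups, and the labels leave unsaid if these were separate cultures or if a line is 1 clone, so p-values measure the spread between these libraries only, and an effect of the guide cannot be told apart from any other difference between the lines.

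Library totals ran from 1687466 to 3126208 counts, and 8265 to 9437 genes had a count in each library. Nat10 had 168, 128 and 292 counts in WT, against 315, 133 and 445 counts in the KO-labelled ones, so the label KO was not matched by less Nat10 mRNA (log2 fold change -0.07 ± 0.48, SE, n = 3 per group, edgeR adjusted p = 0.99996, and 0.03 with library totals in place of TMM scaling). The epithelial and mesothelial markers listed for ID8 summed to 6222 to 6668 CPM (counts scaled to a common library size, as edgeR gives them) in WT, against 4681 to 5337 CPM in the KO-labelled ones, with 7 of 8 at 10 or more counts in 3 libraries. Leukocyte markers summed to at most 14.5 CPM and endothelial markers to at most 1.55 CPM, Epcam had no count, and the fibroblast list, with Dcn as the only one of 4 genes at 10 or more counts in 3 libraries, summed to 666 to 737 CPM in WT, against 951 to 1325 CPM in the KO-labelled ones. The share of counts on Gm42418, a gene overlapping ribosomal RNA, was 12.4% to 13.9% in WT, against 9.32% to 10.1% in the KO-labelled ones, and the part of these shares and marker levels in the values given here was not tested.

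The sequences around the annotated starts of 6 members are shown because these are the factors with non-overlapping groups and an unadjusted p under 0.05 that matched the RefSeq promoter table (GRCm38.p6). Each run covers 30 bases before and 30 after the start on the gene's own strand, 5′ to 3′, with the longest uninterrupted run of C and T in capitals. Eef2 (chr10:81176601-81176660, plus strand) and Eef1b2 (chr1:63176801-63176860, plus) were the members with higher values in every KO-labelled library. Eif2s2 (chr2:154892877-154892936, minus), Eif3m (chr2:105016998-105017057, minus), Eif4a1 (chr11:69672394-69672453, minus) and Gspt1 (chr16:11254296-11254355, minus) had lower values in every KO-labelled library.
Eef2: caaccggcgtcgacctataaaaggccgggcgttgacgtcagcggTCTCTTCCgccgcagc
Eef1b2: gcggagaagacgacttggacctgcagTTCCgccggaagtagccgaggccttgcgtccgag
Eif2s2: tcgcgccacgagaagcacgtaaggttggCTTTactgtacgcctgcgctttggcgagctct
Eif3m: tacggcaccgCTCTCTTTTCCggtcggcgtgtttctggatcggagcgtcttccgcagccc
Eif4a1: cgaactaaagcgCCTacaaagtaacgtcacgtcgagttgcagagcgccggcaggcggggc
Gspt1: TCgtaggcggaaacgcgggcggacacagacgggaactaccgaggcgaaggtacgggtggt

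The C and T run of Eef2 had 8 bases and lay 15 to 22 bases after the annotated start, and that of Eif3m had 11 bases and lay 20 to 10 bases before it. Over the 30 members with an entry, 10 of 36 windows (27.8%) held such a run of 8 or more bases, against 22.9% of all 32851 windows in the table. On the opposite strand, read as a run of A and G, the shares were 22.2% and 25.8%. Among members of the TOP class 3 of 5 windows held a C and T run of this length, Eef1a1, Eef2 and Eif3f, and 2 of 5 held an A and G run. Outside the class 7 of 31 windows (22.6%) held a C and T run. A run in this window is a description of the letters around an annotated start and not a mapped mRNA end.

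**Figure D1:**
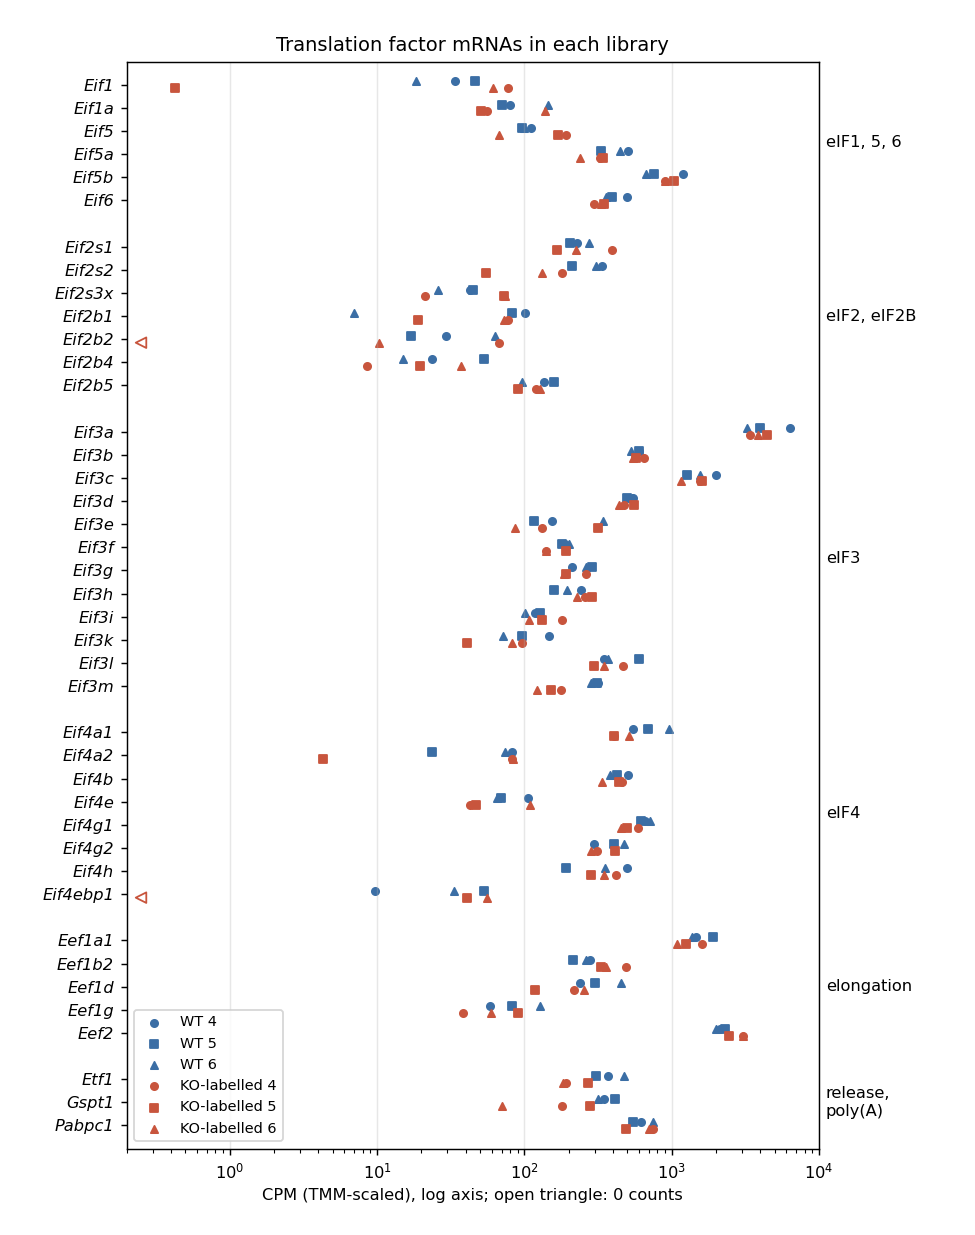
Level of each of the 41 mRNAs in each library, in CPM after TMM scaling on a log axis, with genes grouped by role on the vertical axis. Blue symbols are WT and red symbols KO-labelled libraries, and an open triangle marks a library with 0 counts (Eif2b2 in KO-labelled replicate 5, Eif4ebp1 in KO-labelled replicate 4). Eif3a, Eef2, Eef1a1 and Eif3c lie to the right of all other members in every library.

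No translation factor mRNA passed the test. Of 41 members none had an adjusted p under 0.05 in the quasi-likelihood test of edgeR (Benjamini-Hochberg, adjusted over all tested genes), where 0.402% of all 8200 tested genes did (0.183% higher and 0.22% lower), and the smallest adjusted p of a member was 0.246, for Eif3m. At an unadjusted p under 0.05 there were 8 members (19.5%), 2 higher and 6 lower in KO-labelled libraries, where 6.49% of all tested genes passed (2.7% higher and 3.79% lower). In 9 members (22%) the groups did not overlap, 2 higher and 7 lower, against 14.9% of all tested genes (6.94% higher and 7.93% lower). All 9 and all 8 were among the 25 members of 200 CPM or more, a line chosen after the values were seen. Above this line the shares were 36% of members with groups that do not overlap and 32% with an unadjusted p under 0.05, against 28% and 22.7% of the 818 tested genes of that level. Of these 818 genes 3.18% had an adjusted p under 0.05. DESeq2 called 2 members, both lower, Eif3m (adjusted p = 0.0059) and Eif2s2 (adjusted p = 0.048), where it called 2.88% of all genes with an adjusted p.

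The estimates leaned to lower values. A total of 28 of 41 members had a log2 fold change below 0, against 51% of all tested genes, and the median was -0.22, against -0.02 over all tested genes. With library totals in place of TMM the median over all tested genes went from -0.02 to 0.09, 26 members were below 0, and the median of the members was -0.11. The range over members ran from -1.22 for Eif2s2 to 0.64 for Eef1b2. The 95% interval of the log2 fold change lay within -1 to 1, so inside a 2-fold change either way, for 18 members, where it did for 9.44% of all tested genes. Of the 25 members at 200 CPM or more it did for 17, against 66.6% of the tested genes of that level. The other members had intervals that reached a 2-fold change, 1 of the 16 members under 200 CPM being the exception, so that a change of this size could not be bounded in them at this depth.

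**Figure D2:**
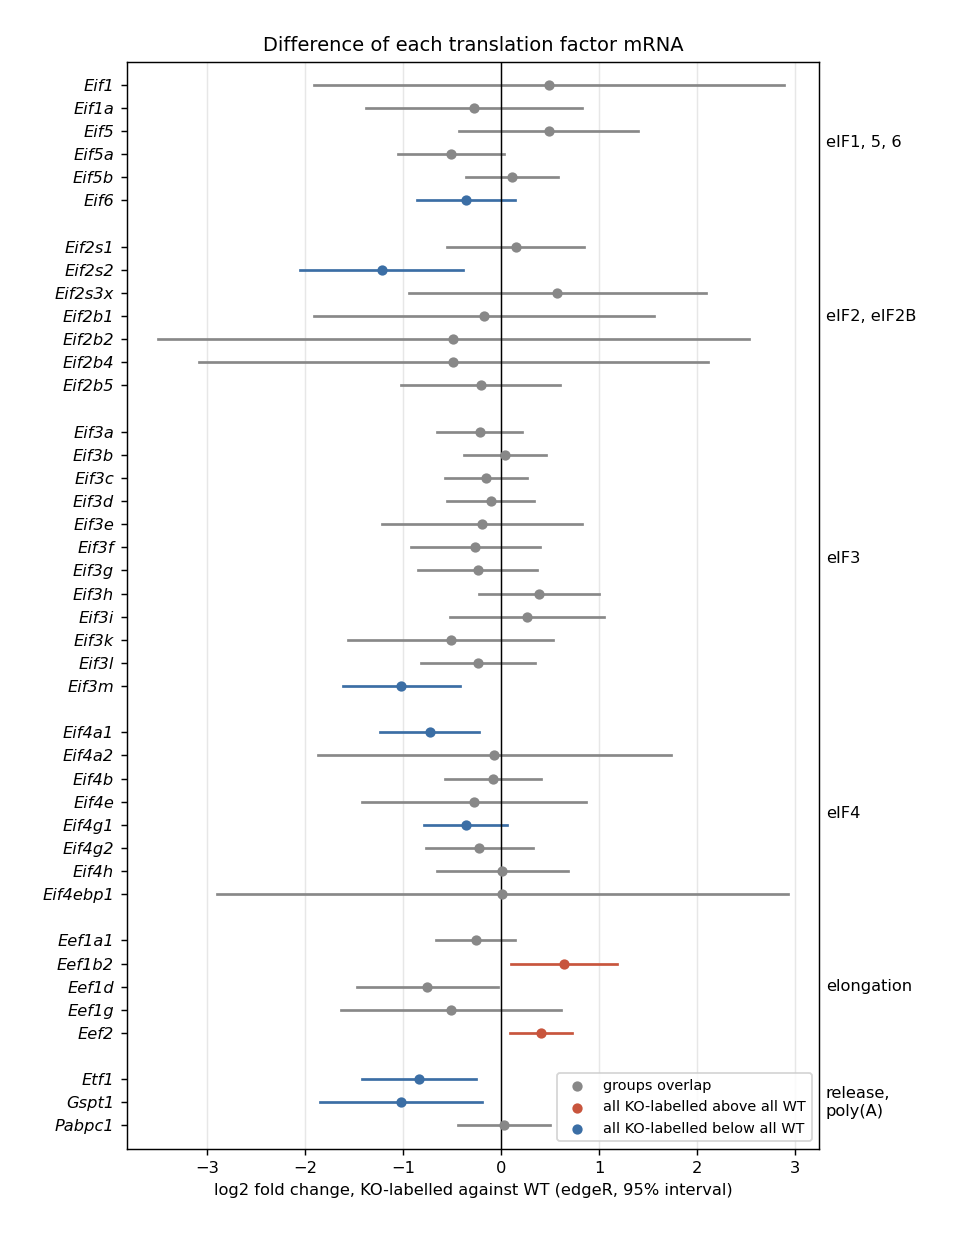
Log2 fold change of each member, KO-labelled against WT, with its 95% interval from the edgeR fit (n = 3 libraries per group). Points in red are the 2 members with all KO-labelled above all WT libraries and points in blue the 7 members with all KO-labelled below all WT libraries, while gray points have overlapping groups, and the intervals are widest for the low genes Eif2b2, Eif4ebp1, Eif2b4 and Eif1.

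By role, the median log2 fold change was -0.21 for the 7 eIF2 and eIF2B genes, -0.21 for the 12 eIF3 genes, -0.16 for the 8 eIF4 genes and -0.26 for the 5 elongation genes. It was -0.08 for the 6 genes of eIF1, eIF5, eIF5A, eIF5B and eIF6. In the group of 2 release factors and Pabpc1 it was -0.84. With library totals the eIF1, eIF5 and eIF6 median turned to 0.022 and the others stood at -0.10, -0.10, -0.05, -0.15 and -0.73 for eIF2 with eIF2B, eIF3, eIF4, elongation and release. With 1 library left out the eIF1, eIF5 and eIF6 median ran from -0.19 (without WT replicate 5) to 0.095 (without WT replicate 4) and was also above 0 without WT replicate 6 or KO-labelled replicate 5. The eIF3 median ran up to -0.10 (without KO-labelled replicate 6) and the elongation median up to -0.11 (without WT replicate 5). These medians are descriptions, since members are not replicates, and no test between the groups was made.

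Summed over each role group, the level overlapped between WT and KO-labelled libraries for eIF2 with eIF2B, eIF3, elongation and the eIF1, eIF5 and eIF6 group. After TMM scaling the eIF3 overlap depended on the abundant Eif3a and Eif3c. Without them the eIF3 sum was 2869, 2970 and 2894 CPM in WT, against 2835, 2738 and 2286 CPM in the KO-labelled ones, with no overlap. This set was formed after the values were seen, and of its genes only Eif3m had no overlap by itself. As a share of all counts the same genes took 0.280%, 0.277% and 0.276% in WT, against 0.286%, 0.286% and 0.236% in the KO-labelled ones. These shares overlap. The eIF4 genes together stood at 2703, 2483 and 3054 CPM in WT, against 2307.5, 2132 and 2185 CPM in the KO-labelled ones, with no overlap. As a share of all counts they took 0.263%, 0.231% and 0.292% in WT, against 0.233%, 0.223% and 0.225% in the KO-labelled ones, which overlap. Of these genes only Eif4a1 and Eif4g1 had no overlap by themselves. Eif4a1 took up 547, 689.5 and 966 CPM of the sum in WT, against 404, 407 and 514 CPM in the KO-labelled ones. The release and poly(A)-binding genes together stood at 1338, 1259 and 1535 CPM in WT, against 1116, 1041 and 959 CPM in the KO-labelled ones. These values had no overlap, also as a share of all counts (0.130%, 0.117% and 0.147% against 0.113%, 0.109% and 0.0989%). By themselves Etf1 and Gspt1 had no overlap, while Pabpc1 overlapped. All 41 mRNAs together took 2.22%, 1.79% and 1.82% of the counts of the WT libraries and 1.95%, 1.94% and 1.82% of those of the KO-labelled libraries. In bulk samples a lower sum cannot be told apart between less RNA per cell and fewer cells that hold it.

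**Figure D3:**
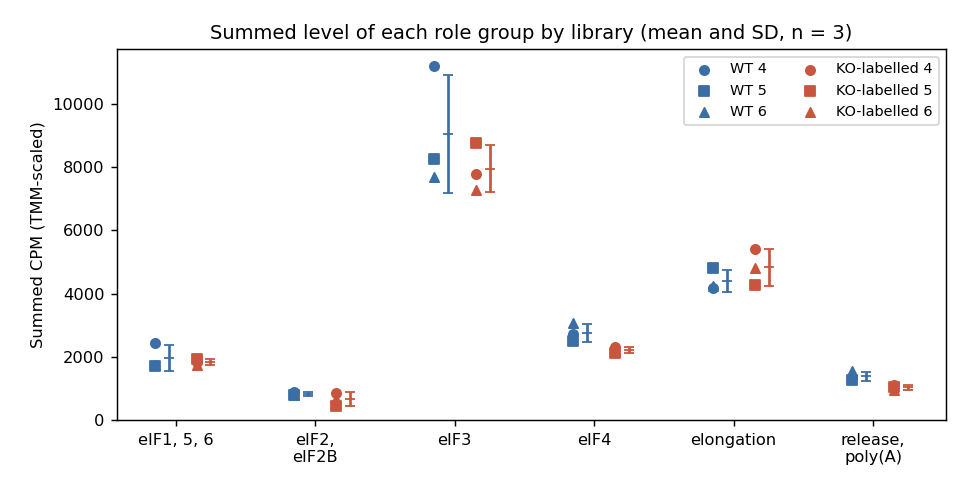
Summed CPM of each role group in each library, with the mean and SD of each group of 3 libraries beside the points. After TMM scaling the eIF4 group and the release and poly(A) group show all KO-labelled libraries below all WT libraries. As a share of all counts the eIF4 values overlap. The eIF3 sum is highest in WT replicate 4 at 11188 CPM.

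Among the eIF2 genes, Eif2s2 stood apart from its partners. Eif2s2 encodes the beta subunit, which binds eIF5 and helps place the initiator tRNA, and lies on chromosome 2 from 154871410 to 154892935 (mm10). It stood at 337, 212 and 306 CPM in WT replicates 4, 5 and 6 and at 179.8, 54.8 and 132 CPM in KO-labelled replicates 4, 5 and 6, so that every KO-labelled library lay below every WT library. The log2 fold change was -1.22 ± 0.39 (SE, n = 3 per group), with an interval from -2.05 to -0.39 and an edgeR adjusted p of 0.419. As a ratio this is a 2.33-fold lower level. Leaving out 1 library moved it between -1.59 and -0.86.

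Eif2s1, the alpha subunit whose phosphorylation holds back initiation under stress, stood at 229, 204 and 273 CPM in WT, against 392, 167 and 223 CPM in the KO-labelled ones. Its groups overlapped, with the highest value in KO-labelled replicate 4, and its log2 fold change was 0.15 ± 0.33 (SE, n = 3 per group, edgeR adjusted p = 0.99996). Per length of exon, Eif2s2 stood at 1.08, 0.76 and 0.82 of the level of Eif2s1 in WT, against 0.336, 0.240 and 0.433 of it in the KO-labelled ones, a ratio formed after the values were seen. Eif2s3x, the gamma subunit that carries GTP and the tRNA, was low at 26.02 to 44.5 CPM in WT, against 21.1 to 73.8 CPM in the KO-labelled ones.

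The eIF2B genes, whose complex reloads eIF2 with GTP, were too low for a narrow estimate. Eif2b5, the catalytic epsilon subunit, was the most abundant, at 96.0 to 158 CPM in WT, against 90.8 to 127 CPM in the KO-labelled ones. Eif2b1 ran from 6.94 to 100.3 CPM within the WT group, Eif2b4 from 15.03 to 53.5 CPM, and Eif2b2 had 48, 34 and 109 counts in WT against 173, 0 and 33 in KO-labelled libraries. The estimates of these 4 were below 0, from -0.49 to -0.18, with intervals of up to 3.01 to either side on the log2 scale. Eif2b3, the gamma subunit, which is no member, had an estimate above 0 (1.44 ± 1.11, SE, n = 3 per group), at 17.2 ± 14.97 CPM in WT, against 47.0 ± 51.7 CPM in the KO-labelled ones (SD). The Eif2b2 estimate varied with the setting and stood at -2.43 with the replicate block, -2.39 by limma-voom and 0.089 without KO-labelled replicate 5.

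Of the 12 eIF3 subunit mRNAs, 11 had overlapping groups and Eif3m did not. The share without overlap was 8.33%, against 14.9% of all tested genes. eIF3 is the largest initiation factor, a scaffold on the small ribosomal subunit that links it to the mRNA through eIF4G. Eif3m encodes a subunit of its PCI and MPN domain core and lies on chromosome 2 from 104999656 to 105017080 (mm10). Eif3m stood at 317, 311 and 284 CPM in WT, against 176, 152 and 122 CPM in the KO-labelled ones. The WT values lay close together and every KO-labelled value was below them, with a log2 fold change of -1.02 ± 0.28 (SE, n = 3 per group), an interval from -1.62 to -0.42 and an edgeR adjusted p of 0.246. With 1 library left out the estimate stayed between -1.15 and -0.90.

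The estimates of the 11 others ran from -0.52 for Eif3k to 0.38 for Eif3h. Eif3a, the largest subunit, stood at 6322, 3997 and 3257 CPM in WT, against 3392, 4413 and 3851 CPM in the KO-labelled ones. WT replicate 4 was highest by far and the other 5 libraries mixed, and leaving WT replicate 4 out took the Eif3a estimate from -0.22 to 0.10 (log2). Eif3c, a core subunit, stood at 1997, 1280.2 and 1552 CPM in WT, against 1567, 1608 and 1153 CPM in the KO-labelled ones, again highest in WT replicate 4. The core subunit Eif3b stood at 531 to 599.6 CPM in WT, against 548 to 647 CPM in the KO-labelled ones, a log2 fold change of 0.03 with an interval from -0.38 to 0.45. Eif3d, which can bind the cap of some mRNAs, had an interval from -0.55 to 0.33. Exons of the antisense gene Gm17638 overlap 43.3% of its exon bases, while Gm17638 itself had 0 counts. As the strand mode is not stated, it cannot be told if reads over the shared bases were counted for either gene.

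Eif3f stood at 179.9 to 200.04 CPM in WT, against 139.6 to 192 CPM in the KO-labelled ones, Eif3g at 211 to 287 and 185 to 263 CPM, and Eif3l at 347 to 599.6 and 299 to 470.1 CPM. Eif3h stood at 158 to 242 and 227 to 288 CPM, Eif3i at 101 to 128 and 108 to 179 CPM, and Eif3k at 71.7 to 146 and 40.7 to 96.4 CPM. Eif3e differed more between libraries of 1 group, with 116 to 341 CPM in WT, against 85.9 to 314 CPM in the KO-labelled ones, a spread of 2.94-fold and 3.66-fold.

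Per length of exon the eIF3 mRNAs covered a wide range although the protein complex holds its subunits in equal number. The highest of the 12 stood 16.6-fold to 31.8-fold above the lowest in WT libraries and 22.7-fold to 34.5-fold in KO-labelled libraries. Eif3a stood at 518 ± 183 CPM per kb and Eif3c at 458 ± 103 CPM per kb in WT, where Eif3b stood at 172 ± 11.6 and Eif3e at 30.3 ± 17.96 CPM per kb (SD, n = 3). Exon length here is the union of all annotated exons, which lowers the value of genes with long rare isoforms. Bases shared with exons of other genes, as in Eif3d, were left in. In this order Eif3m stood at 117 ± 6.68 CPM per kb in WT, beside Eif3l (120.5 ± 38.5) and Eif3d (106 ± 6.14), and at 57.9 ± 10.4 CPM per kb in KO-labelled libraries, beside Eif3f (54.5 ± 10.3).

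**Figure D4:**
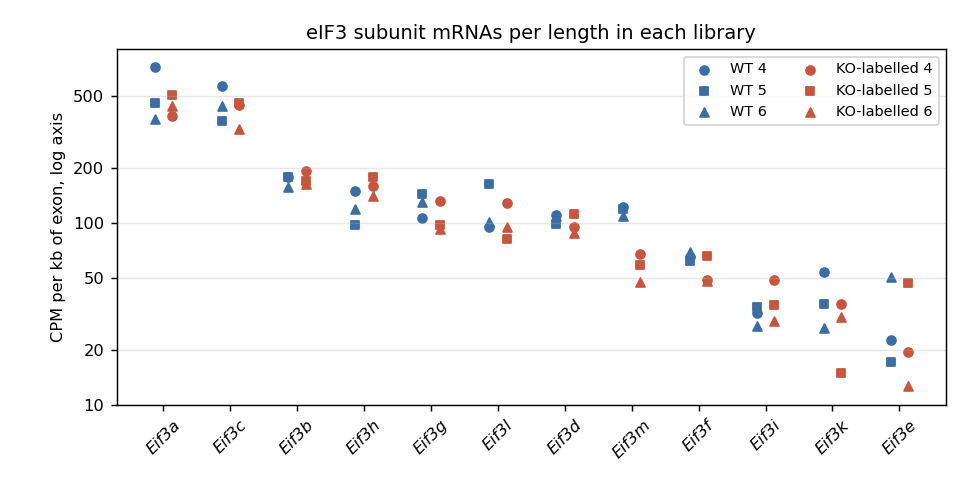
CPM per kb of exon of the 12 eIF3 subunit mRNAs in each library on a log axis, ordered by their mean, with WT libraries in blue and KO-labelled libraries in red. Eif3m is the gene whose red points all lie below its blue points, and Eif3a and Eif3c lie above the other 10 in all libraries.

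In the eIF4 group the helicase Eif4a1 and the scaffold Eif4g1 had non-overlapping groups. These were 25% of its 8 genes, against 14.9% of all tested genes and 28% of those of 200 CPM or more. Eif4a1 encodes the main RNA helicase of the cap-binding complex and lies on chromosome 11 from 69666936 to 69672423 (mm10). It stood at 547, 689.5 and 966 CPM in WT, against 404, 407 and 514 CPM in the KO-labelled ones. WT replicate 6 was highest, and the groups came closest between WT replicate 4 and KO-labelled replicate 6. The log2 fold change was -0.73 ± 0.24 (SE, n = 3 per group), with an edgeR adjusted p of 0.418 and a DESeq2 adjusted p of 0.0604. Without 1 library the estimate ran from -0.91 to -0.49.

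Eif4g1, which joins the cap-binding protein, the helicase and eIF3, stood at 657, 623 and 708 CPM in WT, against 593, 496 and 454 CPM in the KO-labelled ones. Its log2 fold change was -0.37 ± 0.20 (SE, n = 3 per group), and its interval from -0.79 to 0.06 held no 2-fold change. Eif4a2, the second helicase gene, stood at 82.1, 23.5 and 74.0 CPM in WT, against 82.7, 4.28 and 83.8 CPM in the KO-labelled ones, lowest in replicate 5 of each group. Per length, Eif4a1 made up 93.5% ± 4.12 of both helicase mRNAs in WT, against 91.1% ± 7.12 in the KO-labelled ones (SD, n = 3).

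The coding sequences of both helicases are shown over the stretch where they share their longest identical run of 20 bases, to print the differences by which a read there can be placed on either gene. Bases 188 to 247 of the Eif4a1 coding sequence and 194 to 253 of that of Eif4a2 (GENCODE M21) differ at 10 of 60 positions, given in capitals.
Eif4a1: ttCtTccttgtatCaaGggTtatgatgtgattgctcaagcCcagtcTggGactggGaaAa
Eif4a2: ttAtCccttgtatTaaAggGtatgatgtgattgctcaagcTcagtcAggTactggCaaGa

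Over 1221 aligned bases both coding sequences were identical at 78.1%. Exons of other genes, Rfc4 and small nucleolar RNA genes among them, overlap 13.3% of the exon bases of Eif4a2.

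The remaining eIF4 genes had overlapping groups. Eif4b, a helper of the helicase, stood at 382 to 508 CPM in WT, against 339 to 458 CPM in the KO-labelled ones. Eif4h, with a like role, stood at 191 to 495 and 285 to 416 CPM, and Eif4g2, a relative of Eif4g1 that works without the cap-binding protein, at 299 to 471 and 283 to 411 CPM. Eif4e, the cap-binding protein, was low at 65.3 to 106 CPM in WT, against 42.5 to 109 CPM in the KO-labelled ones. Eif4ebp1, the repressor that sequesters the cap-binding protein until mTOR phosphorylates it, had 16, 107 and 58 counts in WT, against 0, 96 and 181 counts in the KO-labelled ones. Its log2 interval ran from -2.90 to 2.92.

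Both members with higher, non-overlapping values were in the elongation group, where the other 3 estimates were below 0. In this group 40% of 5 genes had no overlap, against 14.9% of all tested genes and 28% of those of 200 CPM or more. Eef2, the factor that moves the ribosome by 1 codon and the target of diphtheria toxin, lies on chromosome 10 from 81176631 to 81182498 (mm10). It stood at 2131, 2313 and 2012 CPM in WT, against 3066, 2463 and 3038 CPM in the KO-labelled ones, each of them above every WT library. The log2 fold change was 0.41 ± 0.15 (SE, n = 3 per group), or 1.33-fold, with an interval from 0.09 to 0.72 and an edgeR adjusted p of 0.512.

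Eef1b2, a subunit of the exchange factor that reloads eEF1A with GTP, stood at 279, 215 and 261 CPM in WT, against 489, 333 and 356 CPM in the KO-labelled ones, with no overlap. Its log2 fold change was 0.64 ± 0.25 (SE, n = 3 per group), with an edgeR adjusted p of 0.573. Leaving out 1 library gave 0.46 to 0.75 for Eef1b2 and 0.36 to 0.51 for Eef2.

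The other genes of the exchange complex had estimates in the opposite direction. Eef1d, another exchange subunit, stood at 237, 302 and 456 CPM in WT, against 218, 117 and 255 CPM in the KO-labelled ones, where the groups overlapped between WT replicate 4 and KO-labelled replicate 6. Its log2 fold change was -0.75 ± 0.34 (SE, n = 3 per group), with an edgeR adjusted p of 0.713. Eef1g, the structural subunit, stood at 58.4 to 127 CPM in WT, against 38.2 to 90.3 CPM in the KO-labelled ones.

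Eef1a1, which delivers aminoacyl-tRNA to the ribosome, stood at 1472, 1893 and 1376 CPM in WT, against 1605, 1259 and 1087 CPM in the KO-labelled ones. The groups overlapped, and the log2 fold change was -0.26 ± 0.19 (SE, n = 3 per group) with an interval from -0.67 to 0.14. Per length, Eef2 stood at 1.09, 0.917 and 1.10 of the level of Eef1a1 in WT, against at 1.43, 1.47 and 2.10 of it in the KO-labelled ones, a ratio formed after the values were seen.

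Eif5a, which carries the modified amino acid hypusine and helps the ribosome through stretches such as proline runs, stood at 506, 329.8 and 449 CPM in WT, against 324, 341 and 237 CPM in the KO-labelled ones. Its log2 fold change was -0.51 ± 0.25 (SE, n = 3 per group). Eif6, which keeps the large ribosomal subunit from joining too early, stood at 499, 394 and 357 CPM in WT, against 295, 345 and 332 CPM in the KO-labelled ones. These groups did not overlap but came close between WT replicate 6 and KO-labelled replicate 5, and the log2 fold change was -0.36 ± 0.23 (SE, n = 3 per group).

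Eif5b, the GTPase of subunit joining, stood at 1196, 753 and 674 CPM in WT, against 895, 1034 and 904 CPM in the KO-labelled ones, with overlap and its highest value in WT replicate 4. Exons of Rev1 overlap 16.9% of its exon bases on the opposite strand. Eif5, which triggers GTP hydrolysis by eIF2, stood at 96.4 to 111 CPM in WT, against 67.3 to 193 CPM in the KO-labelled ones. Eif1a, which with eIF1 opens the ribosome for scanning, stood at 71.0 to 146 and 50.5 to 137 CPM. Eif1, which guards the choice of start codon, had 56, 93 and 32 counts in WT, against 199, 1 and 196 counts in the KO-labelled ones, so that KO-labelled replicate 5 alone was near 0.

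Both release factor mRNAs were lower in every KO-labelled library. With Pabpc1 they form a group of 3, of which 66.7% had no overlap, against 14.9% of all tested genes and 28% of those of 200 CPM or more. Etf1 encodes eRF1, which reads the stop codon. It stood at 372, 306 and 475 CPM in WT, against 191, 269.7 and 184 CPM in the KO-labelled ones. The log2 fold change of Etf1 was -0.84 ± 0.27 (SE, n = 3 per group), with an edgeR adjusted p of 0.425 and a DESeq2 adjusted p of 0.0606.

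Gspt1 encodes eRF3, the GTPase partner of eRF1. It stood at 348, 409.7 and 317 CPM in WT, against 181, 279 and 70.4 CPM in the KO-labelled ones, lowest in KO-labelled replicate 6. The log2 fold change was -1.02 ± 0.39 (SE, n = 3 per group), with an edgeR adjusted p of 0.547. Without 1 library it ran from -1.51 to -0.64, the last without KO-labelled replicate 6.

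Pabpc1, which coats the poly(A) tail and binds both eIF4G and eRF3, stood at 618, 543 and 743 CPM in WT, against 744, 493 and 705 CPM in the KO-labelled ones. Its groups overlapped in full and its log2 fold change was 0.03 ± 0.22 (SE, n = 3 per group), with an interval from -0.44 to 0.50.

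The 10 members of the TOP class, Eef1a1, Eef1b2, Eef1d, Eef1g, Eef2, Eif3e, Eif3f, Eif3h, Eif4b and Pabpc1, had estimates in both directions. Their median log2 fold change was -0.14, with 4 above and 6 below 0, against -0.23 for the 31 other members, with 9 above and 22 below 0. The members with higher, non-overlapping values, Eef2 and Eef1b2, were both of this class, and the 7 with lower, non-overlapping values were all outside it. In either direction these were 20% of the TOP members and 22.6% of the others. The share was 14.9% of all tested genes and 28% of those of 200 CPM or more. The difference between the classes was not tested. With library totals the TOP median stood at -0.03, and with 1 library left out it ran from -0.18 to -0.0063, nearest to 0 without KO-labelled replicate 6 or WT replicate 6. After TMM scaling their summed level was 5888, 6228 and 6092 CPM in WT, against 7148, 5989 and 6291 CPM in the KO-labelled ones, which overlap. As a share of all counts the same genes took 0.574%, 0.580% and 0.582% in WT, against 0.721%, 0.626% and 0.649% in the KO-labelled ones. On that scale every KO-labelled library lay above every WT library.

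By position, all 3 members on chromosome 2, Eif3m, Eif2s2 and Eif6, had lower values in every KO-labelled library, a grouping noticed after the values were seen. Over the 644 tested genes of that chromosome 8.39% had lower values without overlap, against 7.93% of all tested genes, and the median log2 fold change was -0.04. Eif3m starts 1238 kb beyond the end of Nat10. Of its nearest tested neighbours of 50 CPM or more, both with overlapping groups, Cstf3 stood at a log2 fold change of 0.10 ± 0.49 and Wt1 at -0.00 ± 0.42 (SE, n = 3 per group). Beside Eif2s2, Raly had -0.17 ± 0.32 and Ahcy 0.84 ± 0.48, and beside Eif6, Trpc4ap had -0.06 ± 0.45 and Cep250, the neighbour with higher and non-overlapping values in the KO-labelled libraries, 0.92 ± 0.47 (SE, n = 3 per group).

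Near-identical copies were given few counts. A coding sequence running from ATG to a stop codon was taken for 40 members, all but Eif4g2, which was not searched. Of the 40 members, 19 had annotated pseudogenes that hold 80% or more of it at 90% identity or more. These were 60 pseudogenes in all, led by Eif1 with 19 and Eef1a1 with 13. The counts given to such pseudogenes came to 5.69% of those of the member for Eif2s1, 5.10% for Eif2s3x, 3.37% for Eef1g and 3.12% for Eif4a1. They came to under 1% for each of the others searched. The sources used here do not give how reads that match several places were counted. These counts therefore cannot show how many reads a member lost by having such copies. Among the 9 members with groups that do not overlap, Eif3m, Eif2s2 and Eif6 had 1 such pseudogene each, Eif4a1 had 3, and Eif4g1, Eef1b2, Eef2, Etf1 and Gspt1 had none.

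Other genes of translation, in 7 lists, gave no call either. Of 75 listed genes with a count row, 60 were tested, none had an edgeR adjusted p under 0.05, 8 (13.3%) had an unadjusted p under 0.05, 2 higher and 6 lower, and 14 (23.3%) had groups that do not overlap, 6 higher and 8 lower. Over all tested genes these shares were 6.49% and 14.9%. The smallest adjusted p, 0.163, belonged to Tufm, the mitochondrial counterpart of eEF1A, at 108, 114 and 106 CPM in WT, against 27.3, 32.5 and 19.5 CPM in the KO-labelled ones. These groups were far apart, with a log2 fold change of -2.05 ± 0.50 (SE, n = 3 per group), and the other 5 tested mitochondrial factors had unadjusted p-values above 0.05.

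In the cap complex list 2 of 15 tested genes (13.3%) had an unadjusted p under 0.05, against 6.49% of all tested genes. There 4 (26.7%) had groups that do not overlap, 2 of them higher, against 14.9% of all tested genes (6.94% higher). Mknk2, a kinase that phosphorylates eIF4E, stood at 17.6, 14.0 and 30.1 CPM in WT, against 78.4, 66.4 and 88.4 CPM in the KO-labelled ones, a log2 fold change of 1.92 ± 0.64 (SE, n = 3 per group, edgeR adjusted p = 0.466). Larp1, the protein that binds TOP leaders when mTOR is inactive, stood at 125, 132 and 246 CPM in WT, against 65.5, 78.8 and 93.7 CPM in the KO-labelled ones (edgeR adjusted p = 0.545).

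Among 8 tested eIF2 kinases and phosphatase genes, Eif2ak2, the RNA-activated kinase PKR, stood at 58.7 ± 23.2 CPM in WT, against 125 ± 41.0 CPM in the KO-labelled ones, and Ppp1ca, a catalytic subunit of protein phosphatase 1, at 463 ± 89.995 and 298 ± 51.1 CPM (SD, n = 3; edgeR adjusted p = 0.705 and 0.555). The helicase Ddx3x stood at 1413 ± 124 and 1068 ± 37.4 CPM, Dph2, of diphthamide synthesis on eEF2, at 67.1 ± 16.4 and 16.2 ± 7.01 CPM, and Tob1, a partner of the poly(A)-binding protein, at 179.7 ± 39.6 and 70.0 ± 60.7 CPM (SD, n = 3; edgeR adjusted p = 0.587, 0.547 and 0.570). Groups overlapped for Eif2ak2 (82.7 CPM in WT replicate 4, 79.1 CPM in KO-labelled replicate 6). They also overlapped for Tob1 (135 CPM in WT replicate 5, 139 CPM in KO-labelled replicate 5), but not for Ppp1ca, Ddx3x and Dph2. Of the 8 eIF2 kinase and phosphatase genes 2 (25%) had an unadjusted p under 0.05, against 6.49% of all tested genes. The 4 tested genes of termination and rescue beside Etf1 and Gspt1 held none at that level.

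**Figure D5:**
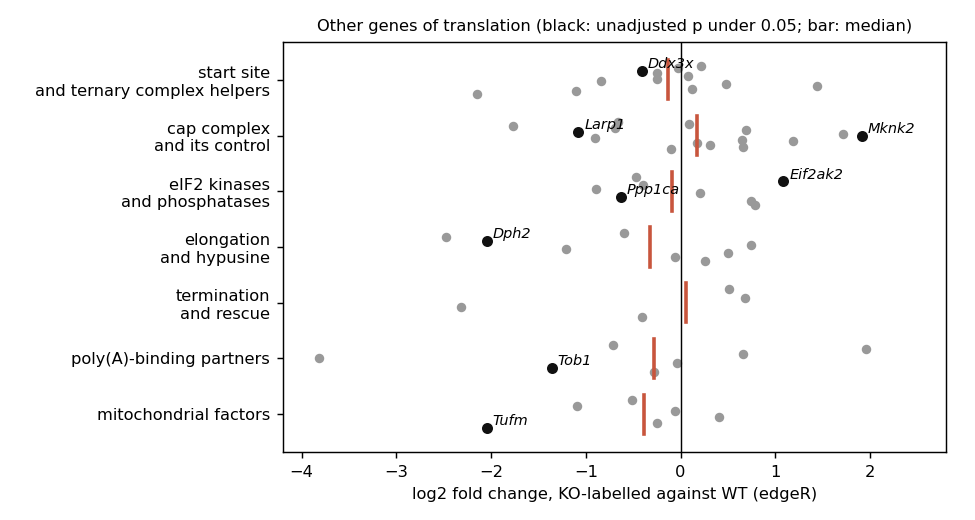
Log2 fold change, KO-labelled against WT, of the 60 tested genes in 7 lists of other translation genes, 1 row per list, with genes at an unadjusted p under 0.05 in black and named, and the median of each list as a red bar. The 8 named genes include 2 on the right, Mknk2 and Eif2ak2, and 6 on the left, and all list medians lie between -0.38 and 0.17.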

How the data were processed

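Per the submitters' processing notes, reads were handled with fastp, HISAT2 2.0.5 and featureCounts 1.5.0-p3 on mm10; poly(A) RNA was selected, per the labels' protocols. The deposited table holds whole-number, unnormalized counts for Ensembl genes. Strand mode, multi-mapping and annotation release are not stated in the sources used here. Genes were named through GENCODE M21 (mm10), which matched 53360 of 53465 IDs. The table was tested whole with edgeR 4.0.16 (R 4.3.3): filterByExpr with a minimum count of 10 left 8200 genes, followed by TMM scaling, a robust quasi-likelihood fit with group as its only term, a two-sided test, Benjamini-Hochberg adjustment and a threshold of 0.05. CPM use TMM-scaled library sizes. Members, lists and tests were chosen with earlier results of these data known. All members are named. Values in every library are given for members with non-overlapping groups, an unadjusted p under 0.05 or among the 2 most abundant of their role group, and for some others. Other pathway genes are named at an unadjusted p under 0.05. Alternatives were DESeq2 1.42.0, limma-voom (limma 3.58.1), DESeq2 size factors, library totals, 2 other filters, a replicate block and leaving out each library. Amplified reads are not independent molecules, so counts understate error.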

Additional observations from a re-analysis of the deposited data

How the results depend on the processing

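The number of members called was 0 under all alternatives except DESeq2, which called 2, Eif2s2 and Eif3m. Over all genes edgeR called 33, against 234 by DESeq2, 91 with no filter on low counts and 43 with library totals, where 27 of 43 were higher against 15 of 33 after TMM scaling. With 1 library left out it called 6 to 29 genes, 6 each without WT replicate 5 and WT replicate 6, 15 without KO-labelled replicate 4, 20 without KO-labelled replicate 5 and 18 without KO-labelled replicate 6. Same-numbered libraries did not deviate together (correlations across genes of -0.02, -0.00 and -0.01). The labels do not say if they were prepared together. The fit with the replicate block called 38 genes and 0 members and put the eIF4 median at -0.38, Eif1 at -0.084, Eif2b1 at 0.076, Eif2b2 at -2.43, Eif4a2 at -0.66 and Eif4ebp1 at -1.16 (log2 fold change).

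With 1 library left out the median of the eIF2 and eIF2B genes ran from -0.39 to 0.089, the last without KO-labelled replicate 5, and that of the eIF4 genes from -0.38 to -0.13, the first without KO-labelled replicate 6. Over all alternatives 24 members kept their sign. By limma-voom Eif1 stood at -0.72, Eif2b1 at 0.30, Eif4ebp1 at -1.74 and Nat10 at 0.019. With library totals Eif4a2 stood at 0.017, Eif4b at 0.016 and Nat10 at 0.026. With 1 library left out, log2 fold changes that turned sign ran from -0.084 to 1.07 for Eif1, -0.90 to 0.11 for Eif1a, -0.048 to 0.40 for Eif5b, -0.26 to 0.39 for Eif2s1, -0.71 to 0.32 for Eif2b1 and -2.79 to 0.16 for Eif2b2. They ran from -1.12 to 0.17 for Eif2b4, -0.41 to 0.099 for Eif3a, -0.031 to 0.080 for Eif3b, -0.30 to 0.027 for Eif3c, -0.90 to 0.40 for Eif3e and -0.43 to 0.056 for Eif3l, and from -0.46 to 0.48 for Eif4a2, -0.18 to 0.030 for Eif4b, -0.28 to 0.36 for Eif4h, -0.65 to 0.60 for Eif4ebp1, -0.075 to 0.20 for Pabpc1 and -0.35 to 0.35 for Nat10. The cause was not tested. The 3 libraries per group and totals of 1687466 to 3126208 counts limit the precision, and most members under 200 CPM had intervals wider than 2-fold.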
